A study of Mus musculus with 12 samples.

Results

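The miR-183 cluster consists of the 3 microRNA hairpins of miR-183, miR-96 and miR-182, and its members here are the 6 rows of the count files for both mature arms of each hairpin, out of 1978 mature miRNAs counted. The counts come from mouse cells of 2 kinds, E14 embryonic stem cells (ESC), which can form the tissues of the embryo, and trophoblast stem cells (TSC), which can form those of the placenta. Groups were paused ESC, in which the growth kinase mTOR was inhibited, control ESC, which the labels call WT, paused TSC and control TSC. No allele or transgene is named for any group, ESC are given as a single line, and the sources used here give neither the inhibitor nor its dose or duration. Of the 3 samples labelled per group, the third was identical to the second at all 1978 miRNAs in every group. The pair was counted as 1 sample, which leaves 2 libraries per group and 8 in all. The labels do not say that these came from separate cultures, so the spread behind p-values may be technical.

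MicroRNAs are cut from hairpin transcripts as short RNAs, and each hairpin can yield a 5p and a 3p arm. A mature miRNA pairs with messenger RNAs mainly through its seed, the bases from position 2 to position 8, and lowers their translation and stability. The hairpins of the cluster are transcribed together and are best known from sensory organs, where they are abundant in hair cells, photoreceptors and sensory neurons. Changes in the miR-96 seed cause progressive hearing loss in mice and humans. The cluster is also common in epithelia, and in many carcinomas it is raised.

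The mature sequences show how closely the main arms resemble each other and how little the 3p arms do. They are printed 5′ to 3′ from RefSeq (GRCm38.p6), with the seed in capitals.

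mmu-miR-183-5p: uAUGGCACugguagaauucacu

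mmu-miR-96-5p: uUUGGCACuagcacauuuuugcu

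mmu-miR-182-5p: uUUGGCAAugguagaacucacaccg

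mmu-miR-183-3p: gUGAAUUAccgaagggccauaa

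mmu-miR-96-3p: cAAUCAUGuguagugccaauau

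mmu-miR-182-3p: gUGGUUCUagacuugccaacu

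The 5p arms carry near-identical but distinct seeds. Counting from 1 at the 5′ end, mmu-miR-183-5p differs from mmu-miR-96-5p in the seed by A2U, and mmu-miR-96-5p differs from mmu-miR-182-5p by C8A. Between mmu-miR-183-5p and mmu-miR-182-5p both differences are present, and 5 seed bases in a row are shared. Outside the seed, these arms share a run of 8 bases that starts at base 9 of each. The 3p arms have seeds unlike those of the 5p arms and unlike each other. Each of the 6 mature sequences has 1 entry in the RefSeq miRNA table, so a read of full length has 1 annotated miRNA locus to be counted at. The table also holds miRNAs outside the cluster with the seed of a member. These are miR-1271-5p, with the seed of mmu-miR-96-5p, and miR-3475-5p, with that of mmu-miR-96-3p, and both had 0 counts in all 8 libraries.

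The hairpins lie on the minus strand of chromosome 6 of GRCm38, at chr6:30169668-30169737 for Mir183, chr6:30169446-30169551 for Mir96 and chr6:30165918-30165992 for Mir182. In the direction of transcription Mir183 comes first, with 116 bases between it and Mir96 and 3453 bases from there to Mir182. The 3820 bases they span overlap 0 other annotated genes. The nearest genes lie on the other strand. They are Rncr4, a long noncoding RNA 3156 bases away, and Nrf1, which encodes a transcription factor of mitochondrial gene expression, 12460 bases away. The results below turn most on the arms of miR-96, so its hairpin is shown with both arms in capitals.

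Mir96 hairpin: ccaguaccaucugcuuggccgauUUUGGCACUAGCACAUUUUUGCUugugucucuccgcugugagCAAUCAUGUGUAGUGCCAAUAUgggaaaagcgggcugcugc

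The libraries were shallow and uneven. Totals were 73574 and 61749 counts in paused ESC, 19266 and 13607 in control ESC, 23652 and 30487 in paused TSC, and 115492 and 18725 in control TSC. Levels are given as CPM, counts relative to a common library size, after edgeR's TMM scaling (a trimmed mean of M-values). At this depth a count of 0 allows up to 3 counts, which is worth 26.0 to 220 CPM on unscaled totals. Floors and intervals given here cover counting error only. The TMM factor of control TSC replicate 1, the deepest library, was 0.680, against 0.887 to 1.15 in the other libraries, and this raises the TMM-scaled levels of that library relative to scaling by total count. Summed marker levels followed the labels. The sum of 7 ESC miRNAs was 63394 to 88714 CPM in ESC and 15650 to 30102 CPM in TSC. Nearly all of its counts came from miR-19a-3p (12812 over all libraries), miR-17-5p (5005) and miR-92a-3p (1516). Every other miRNA on the ESC list had only 10 to 44 counts over all libraries, so the sum says little about those. The sum of 4 TSC miRNAs was 786 to 5304 CPM in ESC and 51377 to 149146 CPM in TSC, with miR-467a-5p at 0 in all libraries. Of 5 neural and sensory markers, 3 were at 0 in all libraries (miR-9-5p, miR-124-3p and miR-204-5p), and the sum of the list was at most 77.3 CPM in any ESC library and at least 90.7 CPM in any TSC library. That sum rests on miR-219a-5p (20 counts over all libraries) and miR-211-5p (7), too few to read a difference between the cell types from it. Arms with several genomic copies are often at 0 in these files, and miR-9-5p is such an arm, with 3 entries in the RefSeq table. The blood list, with miR-223-3p and miR-451a at 0, summed to 4610 to 9650 CPM in ESC and 0 to 178 CPM in TSC. A list of 6 fibroblast feeder markers summed to 703 to 1003 CPM in ESC and 151 to 943 CPM in TSC. Its counts came mostly from miR-143-3p (187 over all libraries) and miR-145a-5p (62), with both arms of miR-199a at 0. Endoderm and endocrine markers summed to 92.8 to 256 CPM in ESC and 51.0 to 165 CPM in TSC. Muscle markers summed to 0 CPM in ESC and 0 to 76.4 CPM in TSC. The part of other cell types in the levels of the cluster was not tested.

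As a whole the cluster was a small part of every library, and control ESC had the smallest part. The 6 arms together held 0.765% and 0.761% of counts in paused ESC, against 0.550% and 0.434% in control ESC. In TSC they held 0.617% and 0.830% in paused libraries, against 0.707% and 0.721% in control libraries. Both control ESC libraries lay below all 6 others, while paused and control TSC overlapped. For this and the separations of groups described below, the share of all miRNAs that separate the same way is not given here. In bulk libraries, fewer cells that express a miRNA and less of it per cell cannot be told apart. Group means were 0.763% ± 0.00288 in paused ESC, 0.492% ± 0.0824 in control ESC, 0.724% ± 0.150 in paused TSC and 0.714% ± 0.00958 in control TSC (SD, n = 2). The difference of paused minus control was 0.27 percentage points in ESC and 0.0094 points in TSC. Over both states, ESC minus TSC was -0.091 points, and of counts outside the miR-290 cluster, an abundant miRNA cluster of early mouse embryonic cells, it was 0.15 points. The order of the cell types therefore depends on the denominator. The depth of the libraries moved with the groups in ESC, since both paused ESC libraries were deeper than both control ESC libraries, and its part was not tested.

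**Figure D1:**
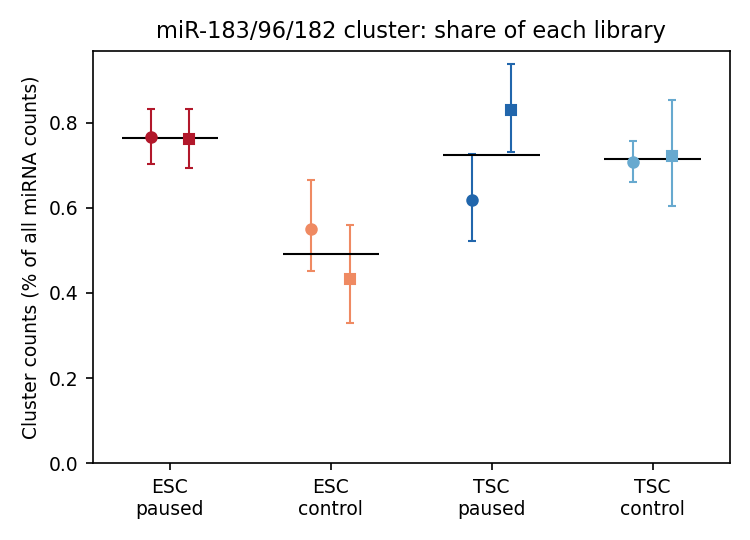
Share of all miRNA counts that fell on the 6 arms of the cluster, in percent, for each of the 8 libraries (circle, replicate 1, square, replicate 2), with exact 95% Clopper-Pearson intervals for counting error and the group mean as a line. The control ESC libraries, at 0.550% and 0.434%, lie below the other 6.

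Within the cluster miR-183 dominated everywhere. Both arms of miR-183 together held 70.1% to 84.7% of the cluster's counts in the 8 libraries, those of miR-182 held 8.51% to 18.8%, and those of miR-96 held 5.66% to 11.1%. The miR-183 share averaged 82.2% ± 3.49 in paused ESC against 76.4% ± 2.63 in control ESC, and 78.6% ± 3.21 in paused TSC against 71.7% ± 2.26 in control TSC (SD, n = 2). It was higher in both paused libraries than in both control libraries of each cell type, and the exact two-sided permutation test gave p = 0.33 for each, the smallest that 2 libraries against 2 allow. The miR-182 share was lower in both paused than in both control libraries of ESC, at 10.6% ± 2.90 in paused ESC and 17.3% ± 1.84 in control ESC. In TSC the miR-182 shares overlapped. Between ESC and TSC over all libraries the exact two-sided permutation p was 0.23 for miR-183 and 0.71 for miR-182, where 4 libraries against 4 could reach 0.0286.

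mmu-miR-183-5p was the most abundant member and ranked 22nd to 36th among all miRNAs of a library. It had 5412 and 5847 CPM in paused ESC, against 3600 and 2684 CPM in control ESC. In TSC it had 4712 and 5685 CPM in paused libraries, against 7006 and 5778 CPM in control libraries. Control ESC was lowest and did not overlap any other group, with no count of how many other miRNAs show that order. The means were 5630 ± 308 CPM in paused ESC, 3142 ± 648 CPM in control ESC, 5199 ± 688 CPM in paused TSC and 6392 ± 868 CPM in control TSC (SD, n = 2). From the lowest, the order on the TMM scale is control ESC, paused TSC, paused ESC and control TSC. On that scale paused ESC overlapped both paused TSC and control TSC, and control TSC lay above paused TSC. By total count the order above control ESC differed, with means of 6010 CPM in paused ESC, 5493 CPM in paused TSC and 4945 CPM in control TSC, and paused and control TSC overlapped.

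mmu-miR-182-5p, a repressor of FOXO transcription factors in other settings, was less abundant than mmu-miR-183-5p in every library. It had 823 and 619 CPM in paused ESC, against 638 and 575 CPM in control ESC. In TSC it had 579 and 1058 CPM in paused libraries, against 1732 and 1144 CPM in control libraries. Control TSC was highest on the TMM scale and the other groups overlapped each other, while by total count paused and control TSC overlapped too. The group means were 721 ± 144 CPM in paused ESC, 607 ± 44.5 CPM in control ESC, 819 ± 339 CPM in paused TSC and 1438 ± 416 CPM in control TSC (SD, n = 2).

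mmu-miR-96-5p, the arm whose seed is changed in inherited hearing loss, separated the cell types. It had 4 and 8 counts in paused ESC and 2 and 2 counts in control ESC, against 8 and 14 counts in paused TSC and 43 and 8 counts in control TSC. In CPM these are 49.9 and 123.8 in paused ESC, 91.1 and 128 in control ESC, 331 and 423 in paused TSC, and 548 and 482 in control TSC. All 4 ESC libraries lay below all 4 TSC libraries. Differences between the cell types were common, with 88.8% of all tested miRNAs under an adjusted p of 0.05 by edgeR's quasi-likelihood test over both states. The share of miRNAs whose libraries separate fully by cell type is not given here. The means were 86.8 ± 52.2 CPM in paused ESC, 109 ± 25.9 CPM in control ESC, 377 ± 65.5 CPM in paused TSC and 515 ± 46.8 CPM in control TSC (SD, n = 2). The ESC groups overlapped each other.

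mmu-miR-96-3p comes from the same hairpin, yet it separated the groups in another way. It had 39 and 24 counts in paused ESC and 4 and 2 counts in control ESC, against 5 and 6 counts in paused TSC and 47 and 7 counts in control TSC. In CPM these are 486 and 371 in paused ESC, 182.3 and 127.8 in control ESC, 206.7 and 181.4 in paused TSC, and 599 and 421 in control TSC. Paused ESC and control TSC were high and overlapped each other, and control ESC and paused TSC were low and overlapped each other. How many other miRNAs show this pattern is not given here. The means were 428.8 ± 81.4 CPM in paused ESC, 155 ± 38.5 CPM in control ESC, 194.1 ± 17.8 CPM in paused TSC and 510 ± 125 CPM in control TSC (SD, n = 2).

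mmu-miR-183-3p and mmu-miR-182-3p, the minor arms of the other hairpins, were too low to test. mmu-miR-183-3p had 15 and 20 counts in paused ESC and 4 and 2 in control ESC, against 4 and 5 in paused TSC and 23 and 3 in control TSC. mmu-miR-182-3p had 5 and 0 counts in paused ESC and 3 and 2 in control ESC, against 1 and 5 in paused TSC and 18 and 2 in control TSC. The ratio of the pooled rates of mmu-miR-182-3p, paused over control ESC, was 0.26 with an exact 95% counting interval of 0.060 to 1.13, which holds 1. That of mmu-miR-183-3p was 1.51, with an interval of 0.63 to 4.40. A pause effect on these arms was not detectable at this depth.

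**Figure D2:**
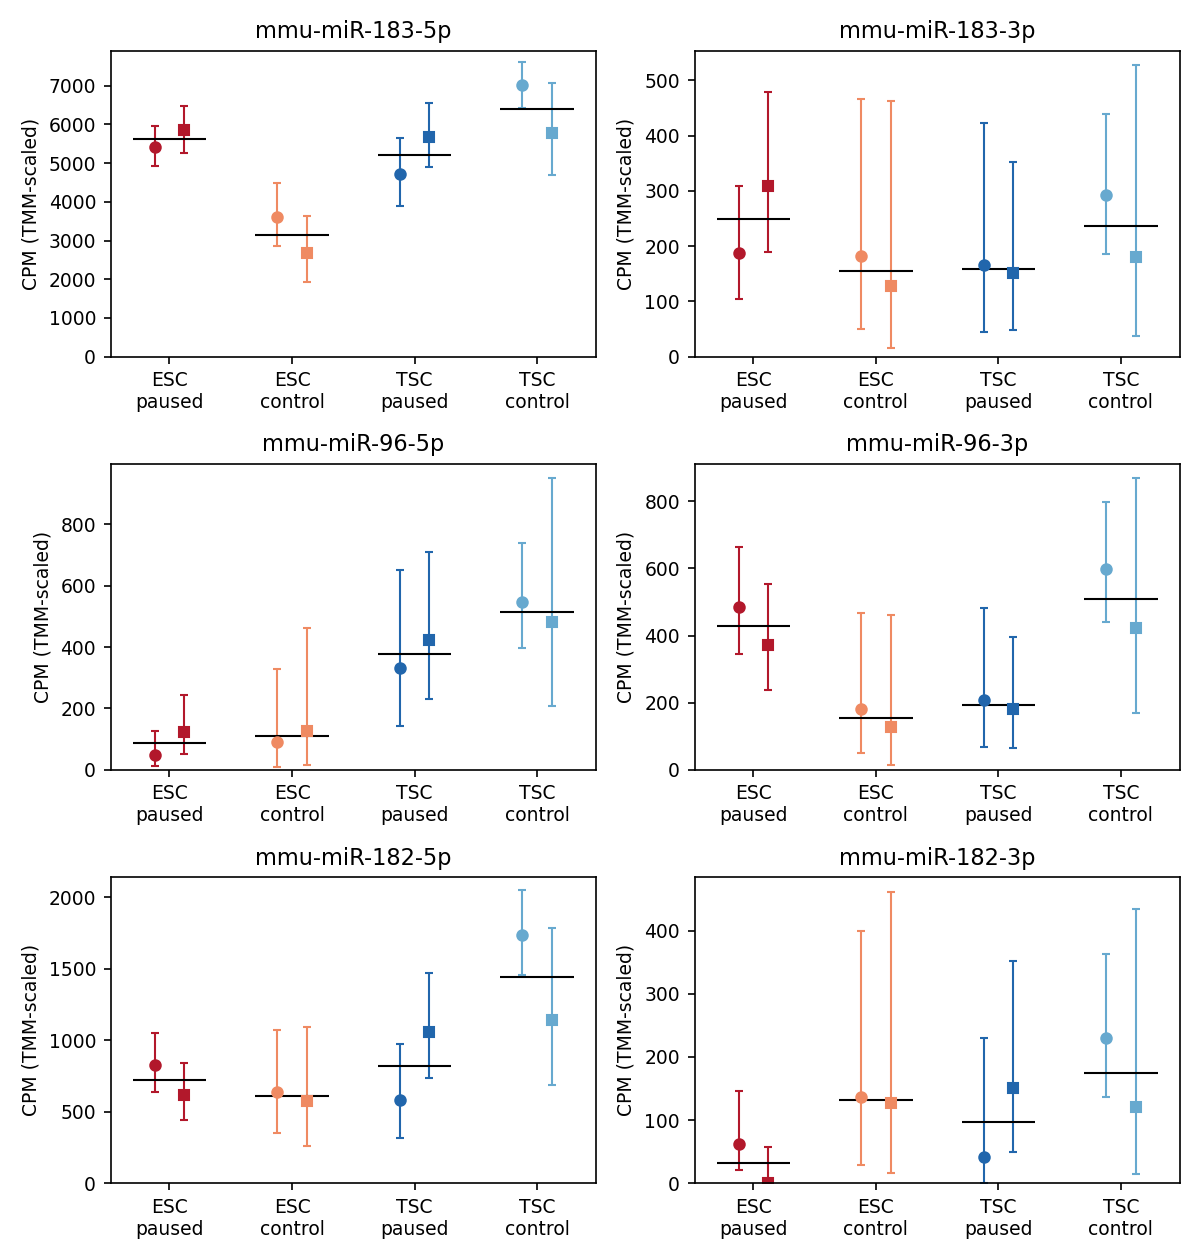
Level of each of the 6 arms in TMM-scaled CPM in the 8 libraries (circle, replicate 1, square, replicate 2), with exact 95% Poisson intervals for counting error and the group mean as a line. mmu-miR-96-5p is higher in all TSC libraries than in all ESC libraries, mmu-miR-183-5p is lowest in control ESC, and mmu-miR-96-3p is high in paused ESC and control TSC.

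In every library the 3p arm held a larger part of miR-96 than of miR-183 or miR-182. The 3p arm made up 2.59% to 5.03% of miR-183 counts and 0% to 18.2% of miR-182 counts over the 8 libraries. Of the miR-96 counts, the 3p arm held 90.7% and 75.0% in paused ESC, 66.7% and 50.0% in control ESC, 38.5% and 30.0% in paused TSC, and 52.2% and 46.7% in control TSC. In paused ESC the 3p arm thus outnumbered the 5p arm in both libraries, and in paused TSC it was the smaller arm in both. The control ESC shares rest on 6 and 4 counts, with exact 95% intervals of 22.3% to 95.7% and 6.76% to 93.2%. The mean share was 70.6% in ESC and 41.8% in TSC, 28.8 percentage points apart, with p = 0.057 by an exact two-sided permutation test over 4 libraries against 4. Adjusted over the 9 exact permutation tests of shares it was p = 0.43, and the arm share of miR-96 was chosen after its values were seen. Since both arms come from 1 library each time, this share does not depend on how libraries were scaled.

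**Figure D3:**
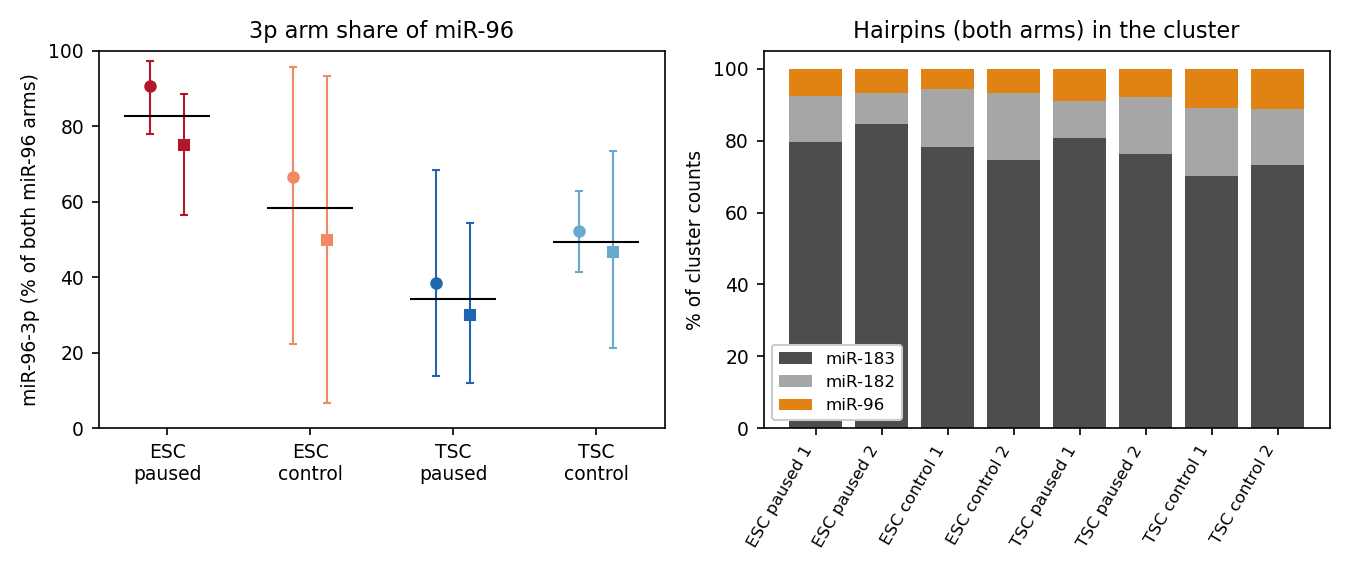
Left, share of miR-96 counts on the 3p arm in percent for the 8 libraries (circle, replicate 1, square, replicate 2), with exact 95% Clopper-Pearson intervals and the group mean as a line; it is 90.7% and 75.0% in paused ESC and 38.5% and 30.0% in paused TSC. Right, cluster counts of each library split by hairpin with both arms summed; miR-183 holds 70.1% to 84.7%.

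Of the 6 members, 4 passed the filter on low counts, which asks for 2 libraries at an unscaled level near 369 CPM or more, and were tested with all other miRNAs that passed it, using edgeR's quasi-likelihood test. Called means an adjusted p (Benjamini-Hochberg) under 0.05. The alternatives counted below include every file as a library. That setting takes the identical files as separate samples, so its p-values overstate the replication. mmu-miR-183-5p and mmu-miR-182-5p were above that level in all 8 libraries. mmu-miR-96-5p passed only through TSC, with 1 paused and 2 control libraries above it, and mmu-miR-96-3p only through both paused ESC and both control TSC libraries. Their contrasts between those groups and the others are therefore not free of the filter, and values from a fit with no filter are given beside the calls.

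The first question of the study is which miRNAs change when ESC are paused. By edgeR, 0 of the 4 tested members passed the test, and over all tested miRNAs 27.7% were called. An unadjusted p under 0.05 was found for 2 members, and the share of all miRNAs under that looser threshold is not given here. DESeq2 called 1 member. mmu-miR-183-5p had a log2 fold change of 0.83 ± 0.35 (SE), 1.78-fold, with adjusted p = 0.059 by edgeR. The level was higher in both paused than in both control libraries, and whether it is called depends on the setting. With median-of-ratios scaling its log2 fold change was 0.97 with adjusted p = 0.012, and DESeq2 gave 0.97 with adjusted p = 0.011. Over 16 alternatives it was called in 9, with adjusted p-values of 0.00037 (every file as a library) to 0.19. Its log2 fold changes there were 0.73 to 1.42. It was called without control ESC replicate 1 (adjusted p = 0.019) and without any 1 TSC library (0.0023 to 0.013). mmu-miR-96-3p had a log2 fold change of 1.42 ± 0.65 with adjusted p = 0.091 by edgeR, and a ratio of pooled rates of 2.73 with a 95% counting interval of 1.18 to 7.71. With no filter its log2 fold change was 1.70 with adjusted p = 0.092. mmu-miR-182-5p was at 0.25 ± 0.46 and mmu-miR-96-5p at -0.34 ± 0.99 on the log2 scale, with edgeR adjusted p-values of 0.73 and 0.81. The median of the 4 tested members was 0.54, and that of all tested miRNAs was -0.028.

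In TSC the pause effect was read off the same way, and 1 member fell. Of 4 tested members, mmu-miR-96-3p was called, while 18.9% of all tested miRNAs were. Its log2 fold change was -1.50 ± 0.56, 2.82-fold lower in paused TSC, with adjusted p = 0.044 by edgeR. The call was kept in 2 of 15 alternatives, with adjusted p-values of 0.00092 to 0.64, and was lost with any of 7 libraries left out; without paused ESC replicate 1 the arm was not tested. The 2 that kept it were the 10 CPM filter and every file as a library. With total-count scaling the log2 fold change was -0.96, with adjusted p = 0.27, and with no filter it was -1.14 with adjusted p = 0.57 by edgeR. mmu-miR-182-5p had a log2 fold change of -0.84 ± 0.41 with adjusted p = 0.15. mmu-miR-183-5p was at -0.31 ± 0.34 and mmu-miR-96-5p at -0.46 ± 0.53, with edgeR adjusted p-values of 0.60 each, and with total-count scaling both were above 0, at 0.16 and 0.061. The median of the tested members was -0.65 and that of all tested miRNAs -0.39, so in paused TSC the median miRNA was itself lower on the TMM scale.

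The pause effects in ESC and TSC were then compared directly, as the ESC effect minus the TSC effect. mmu-miR-96-3p was the 1 member called of 4, against 26.2% of all tested miRNAs. The difference was 2.92 ± 0.86 on the log2 scale with adjusted p = 0.0055 by edgeR, higher in both paused libraries of ESC and lower in both paused libraries of TSC, each against its controls. Without the filter it was 2.84 with adjusted p = 0.032, and over 14 alternatives it was 2.29 to 3.52 and called in 12, with adjusted p-values of 0.00011 to 0.10. The call was lost without paused TSC replicate 2 (adjusted p = 0.077) and without control TSC replicate 1 (adjusted p = 0.10). Without paused ESC replicate 1 the arm no longer passed the filter, and DESeq2 gave no adjusted p. mmu-miR-183-5p differed by 1.14 ± 0.48 (adjusted p = 0.060 by edgeR), mmu-miR-182-5p by 1.09 ± 0.62 (adjusted p = 0.18) and mmu-miR-96-5p by 0.12 ± 1.22 (adjusted p = 0.97). These did not pass the test, and the median over all tested miRNAs was 0.33.

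Between the cell types, mmu-miR-96-5p was the member with the clearest difference. Averaged over both states, 2 of 4 tested members were called, both lower in ESC, where 88.8% of all tested miRNAs were called. mmu-miR-96-5p had a log2 fold change of -2.22 ± 0.50, 4.64-fold lower in ESC, with adjusted p = 2.0e-05 by edgeR. With no filter it was -1.86 with adjusted p = 0.00063 by edgeR. The arm was called in all 16 alternatives, DESeq2 included. Log2 fold changes there were -2.29 to -1.63, and adjusted p-values were 1.4e-06 (every file as a library) to 0.038. mmu-miR-182-5p had -0.75 ± 0.31 with adjusted p = 0.018 by edgeR, a call kept in 2 of 16 alternatives. Adjusted p-values there ran from 0.00084 to 0.64, and the lowest, 1 of the 2 kept calls, came from every file as a library. With single libraries left out, the call held only without paused TSC replicate 1 (adjusted p = 0.018), and the log2 fold change was -0.81 to -0.23. mmu-miR-183-5p (-0.46 ± 0.24, adjusted p = 0.067) and mmu-miR-96-3p (-0.31 ± 0.46, adjusted p = 0.53) did not pass the test.

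Among paused cells, the arms of miR-96 differed between the cell types in opposite directions. Of 4 tested members 1 was higher and 1 lower in paused ESC than in paused TSC, and 76.7% of all tested miRNAs were called. mmu-miR-96-5p was lower, at -2.15 ± 0.65 with adjusted p = 0.0014 by edgeR. It was called in 12 of 16 alternatives, with adjusted p-values of 2.4e-05 (every file as a library) to 0.10. That call was lost without paused ESC replicate 1 (adjusted p = 0.057) and without paused TSC replicate 2 (adjusted p = 0.10). mmu-miR-96-3p was higher, at 1.15 ± 0.55 with adjusted p = 0.048, called in 11 of 15 alternatives with adjusted p-values of 0.0016 to 0.19. That call was lost without either paused TSC library (adjusted p = 0.10 without replicate 1 and 0.12 without replicate 2), and without paused ESC replicate 1 the arm was not tested. With no filter the log2 fold changes were -1.83 for the 5p arm and 1.47 for the 3p arm, with adjusted p-values of 0.013 and 0.029 by edgeR. mmu-miR-183-5p, at 0.11 ± 0.33, and mmu-miR-182-5p, at -0.21 ± 0.41, had adjusted p-values of 0.76 and 0.65 by edgeR.

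Among control cells all 4 tested members were lower in ESC on the TMM scale, and 74.3% of all tested miRNAs were called. The log2 fold changes, control ESC over control TSC, were -1.02 ± 0.35 for mmu-miR-183-5p (adjusted p = 0.0064 by edgeR), -1.29 ± 0.46 for mmu-miR-182-5p (0.0077), -2.28 ± 0.78 for mmu-miR-96-5p (0.0061) and -1.76 ± 0.66 for mmu-miR-96-3p (0.011). With no filter mmu-miR-96-5p was at -1.90 (adjusted p = 0.052 by edgeR) and mmu-miR-96-3p at -1.37 (0.14). These calls depend on scaling. By total count alone, mmu-miR-183-5p averaged 3594 ± 717 CPM in control ESC and 4945 ± 258 CPM in control TSC (SD, n = 2), a log2 fold change of -0.44 with adjusted p = 0.18. With median-of-ratios scaling 1 of the 4 was called, and by total count, TMM without the miR-290 cluster, no filter, or DESeq2 0 of 4. Leaving out 1 library kept all 4 calls only for paused TSC replicate 1 and control TSC replicate 2, and left 0 without control ESC replicate 2 or control TSC replicate 1 and 1 without any other library. The direction stayed lower in control ESC for each of the 4 under every alternative run.

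**Figure D4:**
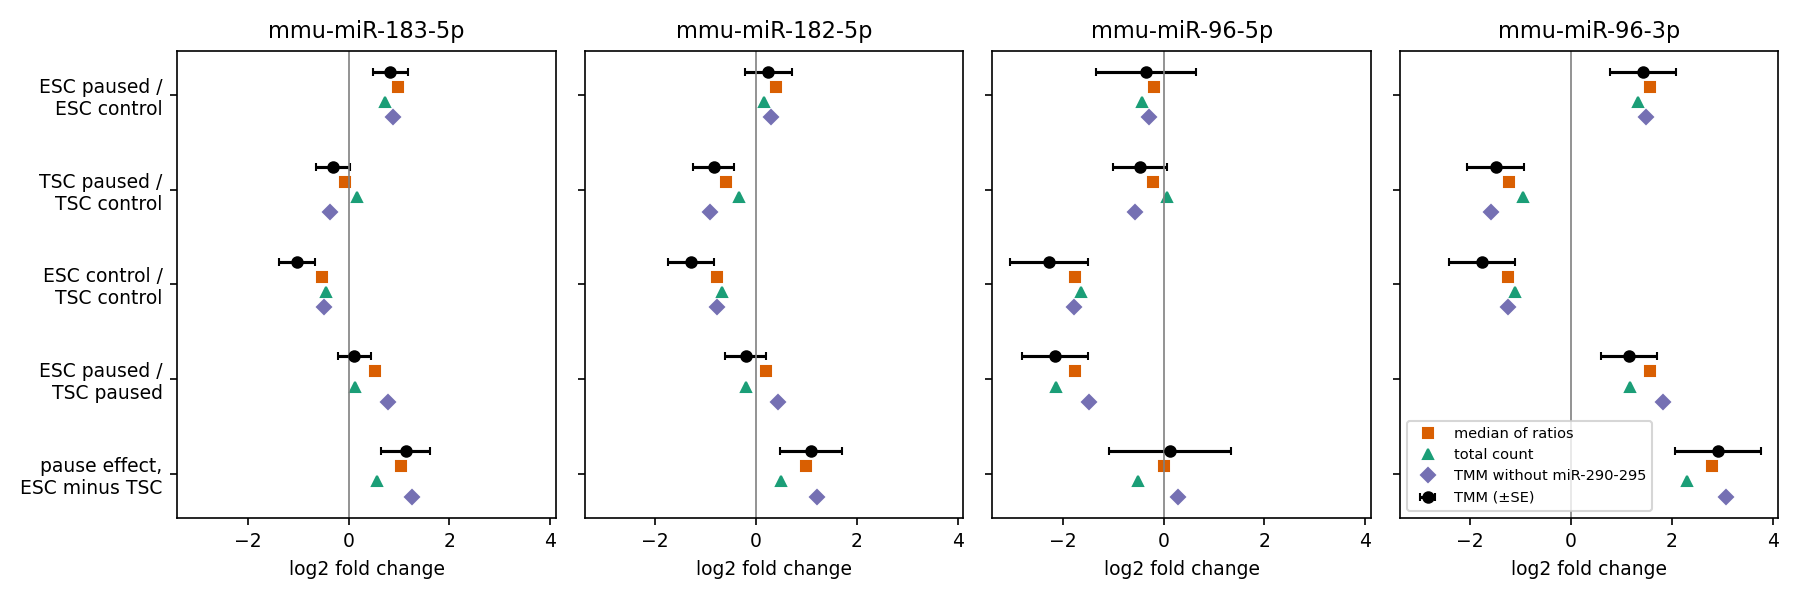
Log2 fold change of the 4 tested arms in 5 comparisons under 4 scalings, with the SE shown for TMM, and 0 marked by a vertical line. For mmu-miR-183-5p in control ESC over control TSC the value runs from -1.02 (TMM) to -0.44 (total count), while for mmu-miR-96-5p it stays below -1.4 in both comparisons of ESC with TSC.

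Scaling shifts all miRNAs of a comparison together, so values relative to the median miRNA are nearly free of it. The median log2 fold change of all tested miRNAs, control ESC over control TSC, was -0.23 with TMM, 0.29 with median of ratios and 0.40 by total count. Relative to that median, mmu-miR-183-5p lay at -0.85 to -0.77, mmu-miR-182-5p at -1.08 to -1.05, mmu-miR-96-3p at -1.54 to -1.52 and mmu-miR-96-5p at -2.05 under the 4 scalings. For paused over control ESC, mmu-miR-183-5p lay 0.86 above the median and mmu-miR-96-3p 1.45 to 1.46 above. For paused over control TSC, mmu-miR-183-5p lay 0.069 to 0.13 above the median, mmu-miR-182-5p at -0.46 to -0.41 and mmu-miR-96-3p at -1.11 to -1.04. So in TSC the lower TMM level of mmu-miR-183-5p in paused cells was no larger than that of the median miRNA. Such values compare miRNAs with each other and hold nothing on amounts per cell.

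How closely the tested arms moved together over the 8 libraries varied by pair. Pearson's r of log2 CPM between tested members was 0.81 for mmu-miR-183-5p with mmu-miR-96-3p and 0.70 for mmu-miR-183-5p with mmu-miR-182-5p. It was 0.66 for mmu-miR-182-5p with mmu-miR-96-5p, 0.65 for mmu-miR-182-5p with mmu-miR-96-3p and 0.49 for mmu-miR-183-5p with mmu-miR-96-5p. For the arms of the miR-96 hairpin it was 0.17. Both miR-96 arms had only 2 to 4 counts in each control ESC library, and the part of counting error in r was not tested. These r values are descriptions over libraries that share depth and scaling and fall into 4 groups. Outside the cluster, the 5 tested miRNAs most like its summed counts by the same measure were miR-126a-5p (r = 0.90), miR-26b-5p (0.87), miR-3102-3p (0.87), miR-200a-3p (0.81) and miR-324-3p (0.79). Of these, miR-26b-5p averaged 456 ± 98.6 CPM in paused ESC and 22.8 ± 32.2 CPM in control ESC, and miR-200a-3p averaged 433 ± 22.1 CPM in paused ESC and 100.3 ± 51.5 CPM in control ESC (SD, n = 2). In control ESC they had pooled counts of 1 and 4, so both means lie below the floors of 156 and 220 CPM of those libraries. By mean unscaled level, miR-26b-5p (486 CPM) reached the 369 CPM of the low-count filter only in paused ESC, so this contrast is not free of the filter.

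The epithelial miRNAs with which the cluster is often found are the miR-200 family, which represses the ZEB factors that switch epithelial cells to a mesenchymal state, together with miR-203 and miR-205. Of 14 arms on the list, 7 were tested. In ESC 3 rose and 0 fell on pausing, while 27.7% of all tested miRNAs were called. The list median was 1.28 against -0.028 for all tested miRNAs. The 3 were miR-200a-3p (2.00 ± 0.69), miR-200b-3p (1.80 ± 0.61) and miR-429-3p (1.28 ± 0.50), with edgeR adjusted p-values of 0.019, 0.016 and 0.037. Their pooled counts in control ESC were only 4, 7 and 12. By mean unscaled level, miR-200b-3p (705 CPM) and miR-200c-3p (397 CPM) reached the 369 CPM of the filter only in paused ESC. Their contrasts of paused ESC with other groups are therefore not free of the filter, nor is the list median. With no filter 13 arms were fitted, 2 rose and 0 fell, and the list median was 1.18. With total-count scaling 2 were called, and with DESeq2 or without paused ESC replicate 1 0 were. In TSC 1 rose, miR-141-3p (1.37 ± 0.48, adjusted p = 0.030), and 2 fell, miR-203-3p (-2.40 ± 0.42, adjusted p = 5.2e-07) and miR-429-3p (-1.38 ± 0.46, adjusted p = 0.026, lost with total-count scaling), by edgeR. When TMM factors left out the miR-290 cluster, 0 arms of the list rose and 2 fell, and with DESeq2 or no filter 0 rose and 1 fell. Without paused TSC replicate 2 or control TSC replicate 1, 0 rose and 1 fell. The list median on the TMM scale was -0.20 against -0.39 for all, and 18.9% of all tested miRNAs were called by edgeR. The difference of pause effects was called and higher in ESC for miR-429-3p (2.66 ± 0.68), miR-203-3p (3.30 ± 0.91, on a pooled count of 3 in control ESC) and miR-200b-3p (2.58 ± 0.99). Their edgeR adjusted p-values for this difference were 0.0011, 0.0029 and 0.038. With total-count scaling or no filter this difference was called for 2 arms of the list, and with DESeq2 for 1. Of all tested miRNAs, 26.2% were called for it by edgeR.

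The other miRNA hairpins within 1 Mb on chromosome 6 are those of miR-335 and the miR-29 family. Of their 6 arms, miR-335-5p and miR-29a-3p were tested. By edgeR, 27.7% of all tested miRNAs were called for the ESC pause and 18.9% for the TSC pause. miR-335-5p averaged 953 ± 95.9 CPM in paused ESC, 1355 ± 17.8 CPM in control ESC, 6014 ± 263 CPM in paused TSC and 2605 ± 279 CPM in control TSC (SD, n = 2). It rose in paused TSC (1.19 ± 0.35, adjusted p = 0.010 by edgeR). As few miRNAs rose there, the 0 of 4 tested members of the cluster that did are not set apart by this. The call for miR-335-5p was lost when TMM left out the miR-290 cluster (1.11, adjusted p = 0.082), with the replicate number as a block and with the 10 CPM filter. miR-29a-3p rose in paused ESC (1.55 ± 0.58, adjusted p = 0.031 by edgeR) and had a pooled count of 8 in control ESC. This call was lost when TMM left out the miR-290 cluster (1.60, adjusted p = 0.074), with the replicate number as a block, and without paused ESC replicate 2 or control ESC replicate 1. Both were lower in ESC than in TSC over both states, a comparison in which 88.8% of all tested miRNAs were called (86 higher and 97 lower). The log2 fold changes were -1.81 ± 0.27 for miR-335-5p and -3.51 ± 0.32 for miR-29a-3p (edgeR adjusted p = 7.5e-11 and 3.3e-25).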

How the data were processed

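The labels' protocols describe column-purified small RNA, of which 10 ng per sample went into SMARTer smRNA-seq libraries, and mention no molecular identifiers. The authors deposited raw counts per mature miRNA, made on GRCm38, as the submitters' processing notes list it. Which aligner, counter and miRNA annotation were used is not given in the sources used here. Of 1978 names, 1679 matched the RefSeq miRNA table. Arms with more than 1 entry there had a count in 13.6% of cases, against 33.1% for arms with 1 entry.

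The members and lists were chosen with earlier results of these data known. The named miRNAs are all members, their seed relatives, an epithelial list, hairpins within 1 Mb and the 5 miRNAs most like the summed cluster. Counts of the 8 distinct libraries were fitted with edgeR 4.0.16 (R 4.3.3; TMM, filterByExpr with a minimum of 10 counts, 1 mean per group, quasi-likelihood, 4 residual degrees of freedom, Benjamini-Hochberg adjustment, two-sided). The 206 tested miRNAs held at least 98.1% of each library's counts. The common dispersion was 0.0456, and single miRNAs were drawn fully to the trend, so p-values rest on a pooled spread. Each SE is the fold change divided by the square root of F. The share of the cluster is given with no test. Other shares were compared by exact permutation tests (scipy 1.17.1), and limma 3.58.1 was loaded with edgeR. Alternatives were DESeq2 1.42.0, other scalings and filters, every file as a library, a replicate block and each library left out. On simulated counts of 173 miRNAs for paused against control ESC, 40 of 40 changed miRNAs were recovered, with 2 false calls. The 40 were changed 4-fold and drawn from miRNAs more abundant than the median tested one, at a dispersion near the fitted value. Recovery of smaller changes or of less abundant miRNAs was not simulated.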

Additional observations from a re-analysis of the deposited data

Results flagged for a closer look

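mmu-miR-96-3p was the member whose pause effect differed between the cell types by a test of the difference itself. The effect in ESC minus that in TSC was 2.92 on the log2 scale, with an SE of 0.86 and an adjusted p of 0.0055 by edgeR's quasi-likelihood test, on pooled counts of 63 in paused ESC, 6 in control ESC, 11 in paused TSC and 54 in control TSC. mmu-miR-96-3p passed the filter on low counts only through paused ESC and control TSC, the groups where it is high.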

How the results depend on the processing

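The libraries hold at most 115492 counts, and several member counts are below 10, so counting error limits the pause effects of the miR-96 arms and of the untested 3p arms. Over the alternatives, 239 values of single members kept direction and side of the threshold, 80 lost a call, 16 gained one and 40 changed sign. Where a cause is not named, the cause was not tested.

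Members called: for ESC paused against control 0, but 2 with median-of-ratios scaling or every file as a library and 1 with no filter or DESeq2 (0 to 2 with 1 library left out). For TSC paused against control 1, but 0 with median-of-ratios, total-count or miR-290-free TMM scaling, no filter or DESeq2 (0 with 1 library left out). For the difference of pause effects 1, but 2 with the 10 CPM filter or every file as a library and 0 with DESeq2 (0 to 1). For control ESC against control TSC 4, but 1 with median-of-ratios scaling and 0 with total-count or miR-290-free scaling, no filter or DESeq2 (0 to 4). For paused ESC against paused TSC 2, but 0 with DESeq2 (0 to 2). For the mean over both states 2, but 1 with each other scaling, no filter, the 10 CPM filter or DESeq2 (1 to 2).

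All miRNAs called: for ESC paused against control 57, but 37 with DESeq2 and 94 with every file as a library. For TSC paused against control 39, but 24 with median-of-ratios scaling and 16 with no filter or DESeq2 (7 to 32 with 1 library left out). For the difference of pause effects 54, but 30 with no filter or DESeq2 and 90 with every file (26 to 65).

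The labels give replicate numbers but do not say that same-numbered libraries were prepared together. Deviations of same-numbered libraries from their group means correlated at -0.071 in ESC and -0.18 in TSC. With 2 libraries per group this is a single value per cell type, which cannot settle whether they were paired. With the replicate number as a block, members called were 0 for the TSC pause, 0 for control ESC against control TSC, 0 for paused ESC against paused TSC and 1 for the mean over both states, and all miRNAs called were 12 for the TSC pause and 31 for the difference of pause effects.

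Signs that changed, all without a call: mmu-miR-183-5p for the TSC pause, 0.16 by total count and 0.025 with no filter (-0.19 to 0.28 with 1 library left out), for paused ESC against TSC -0.013 to 0.46 with 1 left out, and for the mean over both states 0.15 with miR-290-free TMM. mmu-miR-96-5p, by total count, was 0.061 for the TSC pause and -0.50 for the difference of pause effects; with 1 library left out these were -0.36 to 0.18 and -0.79 to 0.31, and the ESC pause -0.84 to 0.21. mmu-miR-96-3p for the mean over both states was 0.16 with median of ratios, 0.028 by total count, 0.29 with miR-290-free TMM, 0.052 with no filter, 0.031 with the 10 CPM filter, 0.17 with DESeq2 and -0.23 to 0.071 with 1 left out. mmu-miR-182-5p for paused ESC against TSC was 0.20, 0.44, 0.091, 0.44 and 0.21 with median of ratios, miR-290-free TMM, no filter, the 10 CPM filter and DESeq2 (-0.53 to 0.55), and for the ESC pause -0.0085 to 0.71.

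Of counts outside the miR-290 cluster, the cluster's share differed by 0.84 points for paused minus control ESC, 0.26 for paused minus control TSC and 0.15 for ESC minus TSC. With every file as a library the 3p share of miR-96 differed by 27.2 points between ESC and TSC, with an exact permutation p of 0.0065 that counts identical files separately; this alternative was chosen after seeing the data.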
